A study of Homo sapiens with 6 samples.

Results

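The genes described here are 30 transcriptional targets of the tumour suppressor p53 other than the CDK inhibitors. They were chosen by name, with earlier results of these data known, and matched to Entrez gene IDs. All 30 were found among the 28395 genes of the count table, and 24 had enough counts to be tested. RNA was measured in TC28a2 cells, a human chondrocyte line made immortal. The cells received a control vector (3 libraries) or one that overexpresses ZEB1, a zinc finger transcription factor (3 libraries), and were collected 48 h later. Apart from the vector, the labels give no difference in line or handling between the groups, and whether replicates were separate cultures is unstated. All p-values therefore measure the spread between these samples alone, which may be technical. The study asked which genes respond to ZEB1 in work on senescent cells of osteoarthritic cartilage and meniscus.

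p53 is a DNA-binding protein that is stabilised when DNA is damaged or the cell is otherwise stressed. It then binds paired copies of a short consensus near its target genes and raises their transcription. The targets act together: some halt the cell cycle, some repair DNA or supply nucleotides, some limit growth and oxidative damage, and others promote apoptosis. MDM2 and PPM1D, themselves targets, feed back to lower p53 activity. p53 and its targets are also part of the arrest that defines senescent cells. TC28a2 cells are known to have been immortalised with the large T antigen of simian virus, a protein that binds p53, which limits them as a model of the pathway.

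None of the 24 tested p53 targets passed an edgeR adjusted p of 0.05 over all genes, where 0.00883% of the 11329 tested genes did, that is ZEB1 alone. RPS27L, a ribosomal protein paralog, had the largest log2 fold change, at 235 ± 63.6 CPM (SD, n = 3; CPM are counts scaled to the library total by TMM factors) with the ZEB1 vector against 128 ± 24.9 CPM (SD, n = 3) in the controls. That change, 0.86 on the log2 scale (SE 0.20), had an edgeR adjusted p of 0.161. DESeq2 and limma-voom called it, where they called 7.49% and 0.512% of the genes they adjusted over. The other 23 targets lay between -0.67 and 0.43, with 7 higher and 16 lower. Among regulators and other targets of p53, MDM2 and CDKN1A had lower values in all 3 ZEB1 libraries than in any control. Of all tested genes 8.16% did so, and neither gene passed in the edgeR fit (adjusted p 0.348 and 0.235).

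Control libraries held 5359200 to 5878640 counts, and ZEB1 replicates 1, 2 and 3 held 1277632, 1621270 and 3316228. The smallest level taken as seen, 3 counts, equals 0.481 to 0.547 CPM in controls. It equals 2.67, 1.93 and 0.894 CPM in ZEB1 replicates 1, 2 and 3. This limit covers counting error only. ZEB1 itself had 114 to 203 counts in the control libraries and 13805 to 23143 with the ZEB1 vector, for a log2 fold change of 8.79 (SE 0.31). Of 13 chondrocyte markers 1 was tested, SOX9, a transcription factor of cartilage, with 338 to 508 counts in the controls. COL2A1, the main cartilage collagen, had 0 to 8 counts per library, and ACAN, the cartilage proteoglycan, 0 to 7. Of 7 leukocyte markers 1 was tested, CD68, a lysosomal protein gene of macrophages, with 63, 52 and 86 counts among controls, against 6, 19 and 43 under the ZEB1 vector (log2 fold change -0.10, SE 0.46). CD14 had 0 to 17 counts per library and LYZ 0 to 9, while PTPRC, the pan-leukocyte marker, had 0 to 2. Of 6 mesenchymal markers 5 were tested, of 5 epithelial markers 2 and of 5 endothelial markers 1, and 0 of these passed.

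**Figure D1:**
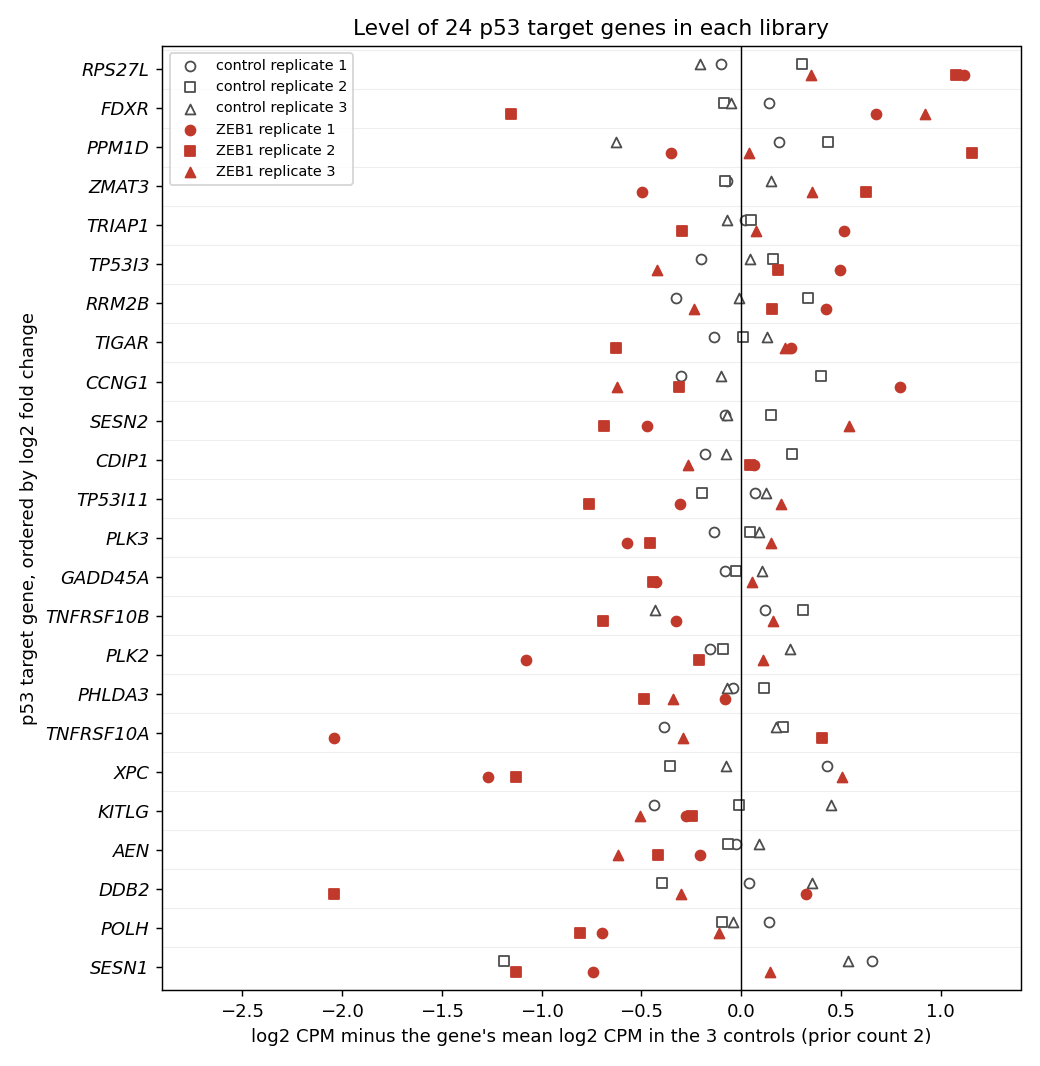
Log2 CPM of the 24 tested p53 targets in each of the 6 libraries, relative to the gene's mean in the 3 controls (open symbols: control, filled symbols: ZEB1 vector, shape: replicate number). RPS27L is the gene whose 3 ZEB1 libraries all lie above the controls, and AEN, POLH and PHLDA3 are those whose 3 ZEB1 libraries all lie below.

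Among the growth arrest and checkpoint genes, 5 of 6 were tested, 1 higher and 4 lower, with a median log2 fold change of -0.22, and 0 passed. GADD45A, a stress sensor that binds PCNA and stress kinases, had 98.3, 102 and 112 CPM in control replicates 1, 2 and 3 and 77.3, 76.5 and 108 CPM in ZEB1 replicates 1, 2 and 3. Its log2 fold change was -0.24 (SE 0.19), with the shallower ZEB1 replicates 1 and 2 below the controls and replicate 3 within their range. In the same order PLK2, a polo-like kinase of centriole duplication, had 59.5, 62.2 and 78.7 CPM in control replicates, against 31.1, 57.2 and 71.5 CPM under the ZEB1 vector. Again replicates 1 and 2 lay under the lowest control and replicate 3 did not, and the log2 fold change was -0.28 (SE 0.25). PLK3, a related stress-responsive kinase, was at -0.22 (SE 0.38) in log2 fold change. CCNG1, the cyclin G1 gene, was at -0.01 (SE 0.40), and its locus also holds NUDCD2, a gene with more counts (857 against 414 over all libraries). PPM1D, the phosphatase WIP1 that turns off p53 signalling, was at 0.38 (SE 0.53). BTG2, an antiproliferative cofactor of mRNA decay, had 0 to 3 counts in each library of either group and was not tested.

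Sestrins and the metabolic targets had 5 of 6 members tested, with 3 higher and 2 lower, a median log2 fold change of 0.00 and 0 past the threshold. SESN1, which restrains mTORC1, had 49, 10 and 44 counts across controls, against 3, 3 and 18 under the ZEB1 vector. Scaled, that was 7.86, 1.82 and 7.18 CPM against 2.67, 1.93 and 5.36 CPM, a log2 fold change of -0.67 (SE 0.78). The groups overlapped, since control replicate 2 was below all ZEB1 libraries. ZEB1 replicates 1 and 2 held just the 3 counts taken as seen, and control replicate 2 was under their CPM. The order of these low values is therefore not read. FDXR, the mitochondrial ferredoxin reductase, had 13.3, 11.3 and 11.6 CPM in control replicates, against 19.5, 5.14 and 23.2 CPM under the ZEB1 vector. Its ZEB1 libraries fell on both sides of the controls, replicate 2 below and the others above (log2 fold change 0.43, SE 0.45). TIGAR, which lowers fructose-2,6-bisphosphate and so slows glycolysis, had 18.3, 20.2 and 22.0 CPM in control replicates, against 23.99, 12.9 and 23.5 CPM under the ZEB1 vector, at a log2 fold change of 0.00 (SE 0.34). This too was a spread to both sides. SESN2, the second sestrin, was at -0.04 (SE 0.42), and TP53I3, a quinone oxidoreductase, at 0.09 (SE 0.62). SPATA18, a mitochondrial quality control gene, had a single count over the 6 libraries together, in control replicate 2, and was not tested.

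Death receptors were the least represented role. FAS, the CD95 receptor, had 9, 4 and 7 counts across controls, against 12, 0 and 1 under the ZEB1 vector, too few for the test, with ZEB1 replicate 1 holding most of its reads in that group. EDA2R, the receptor for ectodysplasin A2, had 0 counts in every control and 0, 0 and 6 with the ZEB1 vector, so its reads came from a single library and no fold is given. The TRAIL receptor gene TNFRSF10B had 35.3, 40.5 and 23.99 CPM in control replicates, against 25.8, 19.9 and 36.3 CPM under the ZEB1 vector, for a log2 fold change of -0.25 (SE 0.31). These groups overlapped, with the highest ZEB1 library above 2 of the controls. TNFRSF10A, the other TRAIL receptor that signals death, was at -0.33 (SE 0.50), with 3, 26 and 34 counts in ZEB1 replicates 1, 2 and 3. Neither receptor passed the test.

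The remaining death and survival genes were tested for 5 of 7. Of these 1 was higher and 4 were lower, the median log2 fold change was -0.21, and 0 passed. AEN, a nuclease that acts in apoptosis, had 42.3, 41.2 and 46.0 CPM in control replicates, against 37.3, 32.2 and 28.0 CPM under the ZEB1 vector. All 3 ZEB1 libraries lay below all controls, and the log2 fold change was -0.43 (SE 0.25, edgeR adjusted p 0.631). PHLDA3, which competes with AKT for membrane lipids, had 24.7, 27.5 and 24.2 CPM in control replicates, against 23.99, 18.0 and 19.96 CPM under the ZEB1 vector. Here too the groups did not overlap, though ZEB1 replicate 1 lay just under the lowest control (log2 fold change -0.31, SE 0.31, edgeR adjusted p 0.822). TP53I11 was at -0.21 (SE 0.31) and CDIP1, a proapoptotic membrane protein gene, at -0.07 (SE 0.29). TRIAP1, which supplies phospholipid to mitochondria and favours survival, was at 0.12 (SE 0.26). TP53INP1, a stress-induced protein of autophagy and death, had 3, 6 and 3 counts across controls, against 0, 15 and 6 under the ZEB1 vector, and its locus overlaps NDUFAF6, which had 501 counts against 33. CYFIP2, a subunit of the WAVE actin complex, had 20, 7 and 13 counts and 0, 3 and 7. Scaled, that was 3.21, 1.28 and 2.12 CPM against 0, 1.93 and 2.09 CPM, with ZEB1 replicates 2 and 3 within the control range. TP53INP1 and CYFIP2 were untested.

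All 4 genes of DNA repair and nucleotide supply were tested, with 1 higher, 3 lower, a median log2 fold change of -0.40 and 0 past the threshold. POLH, the translesion polymerase eta, had 40.1, 33.9 and 35.2 CPM in control replicates, against 22.2, 20.6 and 33.7 CPM under the ZEB1 vector. Its 3 ZEB1 libraries were all below the controls, replicate 3 narrowly so, with a log2 fold change of -0.48 (SE 0.28, edgeR adjusted p 0.641). XPC, the damage sensor of global nucleotide excision repair, had 61.8, 35.5 and 43.2 CPM in control replicates, against 18.7, 20.6 and 64.9 CPM under the ZEB1 vector. In XPC the ZEB1 libraries split, with replicates 1 and 2 far below the controls and replicate 3 above them. The log2 fold change was -0.34 (SE 0.36, edgeR adjusted p 0.836) with all libraries and 0.46 (SE 0.26) with replicate 3 as the only ZEB1 library. Without ZEB1 replicate 3 it was -1.26 (SE 0.33, edgeR adjusted p 0.0417), in a fit where 3.38% of all tested genes passed. DDB2, the partner sensor for ultraviolet lesions, had 15.2, 11.1 and 19.1 CPM in control replicates, against 18.7, 3.22 and 11.9 CPM under the ZEB1 vector. Its low value came from ZEB1 replicate 2, which held 5 counts (log2 fold change -0.46, SE 0.49). RRM2B, the p53-inducible ribonucleotide reductase subunit, was at 0.09 (SE 0.40).

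**Figure D2:**
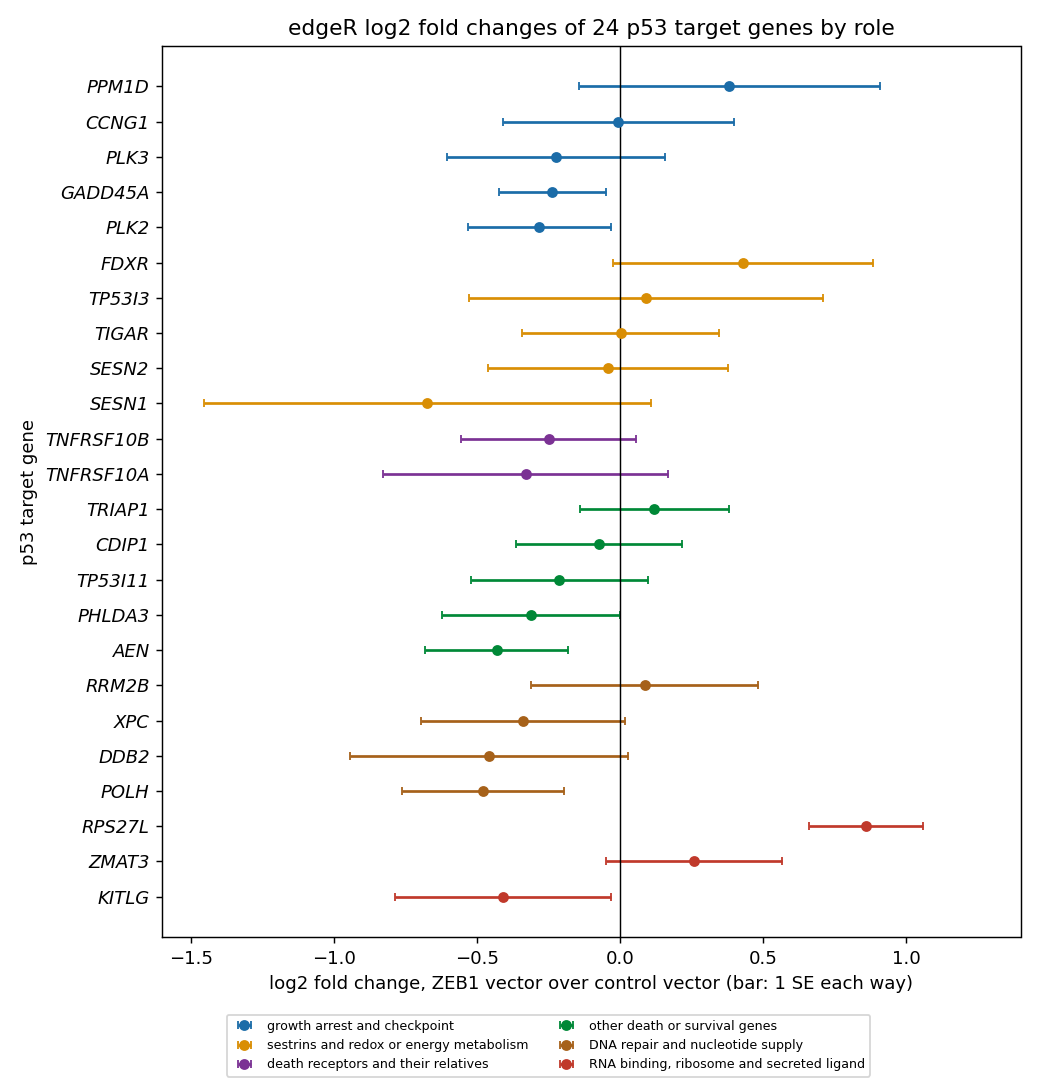
edgeR log2 fold changes (ZEB1 vector over control vector, 3 libraries each) of the 24 tested p53 targets, grouped and coloured by role, with bars of 1 SE each way. RPS27L at 0.86 lies farthest from 0, and most other bars include 0.

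The last members are an RNA-binding protein, a ribosomal paralog and a secreted ligand. ZMAT3, an RNA-binding regulator of splicing and mRNA stability, had 24.1, 23.9 and 28.1 CPM in control replicates, against 17.8, 39.2 and 32.5 CPM under the ZEB1 vector. It lay on both sides of the controls, at a log2 fold change of 0.26 (SE 0.31). KITLG, the ligand of the KIT receptor, had 13.5, 18.2 and 25.3 CPM in control replicates, against 15.1, 15.4 and 12.8 CPM under the ZEB1 vector. Those groups overlapped, with a log2 fold change of -0.41 (SE 0.38).

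RPS27L (Entrez 51065, chr15:63148249-63157477, minus strand, GRCh38.p14) encodes a paralog of the small-subunit ribosomal protein eS27. It had 737, 859 and 674 counts in control replicates 1, 2 and 3 and 310, 416 and 542 in the shallower ZEB1 replicates 1, 2 and 3. Scaled, the controls were at 118, 157 and 110.0 CPM and the ZEB1 libraries at 275, 268 and 161 CPM. ZEB1 replicates 1 and 2 stood well above every control, while replicate 3 was just above control replicate 2. The unadjusted edgeR p was 0.000329 and the adjusted p 0.161. Unadjusted, it was the 1 target of 24 with p under 0.05, where 9.40% of all tested genes had one (5.83% higher, 3.57% lower). DESeq2 called RPS27L with an adjusted p of 0.00731 (it called 7.49% of the genes it adjusted over, among which were 2 of the 24 targets, RPS27L and GADD45A), and limma-voom with 0.0295 (0.512% called). Without ZEB1 replicate 3 the edgeR adjusted p was 0.00243 at a log2 fold change of 1.07, where 3.38% of all tested genes passed. With replicate 3 as the only ZEB1 library the log2 fold change was 0.33 (SE 0.19). As for XPC, that SE takes its spread from the controls and assumes that the lone ZEB1 library varies like them.

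RPS27L was set beside RPS27, its paralog, and the other ribosomal protein genes, a comparison chosen after the values were seen. RPS27 had 1387, 1812 and 1607 CPM in control replicates, against 3324, 2703 and 1862 CPM under the ZEB1 vector, for a log2 fold change of 0.71 (SE 0.19, edgeR adjusted p 0.215). Per 100 RPS27 counts there were 8.52, 8.64 and 6.85 RPS27L counts across controls, against 8.29, 9.90 and 8.67 under the ZEB1 vector, so the ratio of the paralogs overlapped between the groups. Of 81 tested genes with a ribosomal protein symbol (RPL or RPS, RPS27 included and RPS27L not), 78 were higher, with a median log2 fold change of 0.48, and 3 exceeded RPS27L. Their median log2 CPM relative to the controls was 0.77, 0.42 and 0.14 in ZEB1 replicates 1, 2 and 3, and that of RPS27L was 1.12, 1.07 and 0.35. The 2 shallower libraries were thus the higher ones in both. With every library thinned to 1277632 counts, the log2 fold change of RPS27L was 0.79 (SE 0.21, edgeR adjusted p 0.151).

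**Figure D3:**
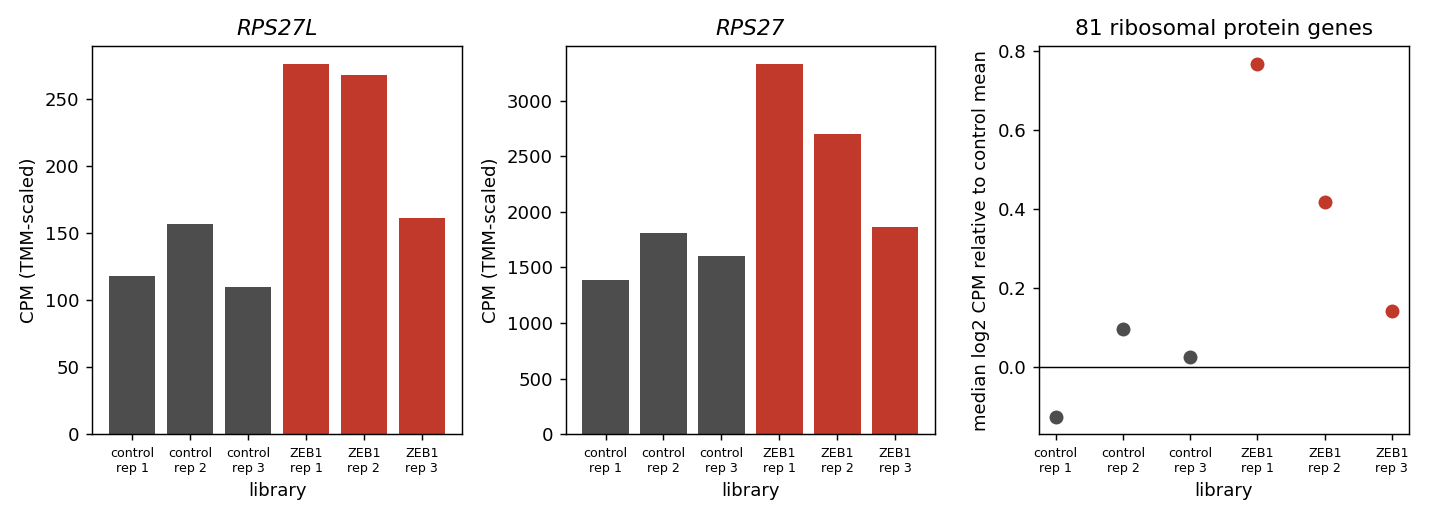
CPM of RPS27L (left) and RPS27 (middle) in each library, and the median log2 CPM of the 81 ribosomal protein genes relative to the control mean (right); grey is the control vector and red the ZEB1 vector. In all 3 panels ZEB1 replicate 3 lies closest to the controls.

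Because reads of close paralogs could be counted for the wrong gene, the coding sequences of the pair are shown, from GENCODE v29 transcripts on GRCh38 (RPS27L-201, chromosome 15, minus strand, and RPS27-201, chromosome 1, plus strand). Capitals mark the bases that differ.
RPS27L-201: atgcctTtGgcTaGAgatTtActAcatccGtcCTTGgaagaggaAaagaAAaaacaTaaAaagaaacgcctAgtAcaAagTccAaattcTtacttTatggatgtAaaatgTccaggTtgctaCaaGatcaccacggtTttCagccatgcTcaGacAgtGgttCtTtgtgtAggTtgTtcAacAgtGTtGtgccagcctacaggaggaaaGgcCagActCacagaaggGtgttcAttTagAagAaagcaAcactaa
RPS27-201: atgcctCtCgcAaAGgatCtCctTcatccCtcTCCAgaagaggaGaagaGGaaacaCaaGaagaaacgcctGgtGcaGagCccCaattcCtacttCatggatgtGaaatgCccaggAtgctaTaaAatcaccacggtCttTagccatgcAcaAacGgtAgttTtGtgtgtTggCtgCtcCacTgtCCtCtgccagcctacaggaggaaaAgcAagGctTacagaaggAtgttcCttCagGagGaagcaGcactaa
Of 255 aligned coding bases 56 differed (78.0% identical), and the longest identical run was 20 bases, also over all pairs of their annotated transcripts. After the stop codon RPS27L-201 has 5782 bases and RPS27-201 has 62, and the longest identical run between these parts was 9 bases. Which part of the transcripts the reads came from was not tested. How reads matching several genes were handled was not given in the sources used here.

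As a group, the 24 tested targets had a median log2 fold change of -0.22, against -0.01 over all 11329 tested genes, and 16 of 24 were lower, where 51.5% of all tested genes were. In 1 target, RPS27L, all ZEB1 libraries lay above all controls (6.96% of all genes did), and in 3 targets, AEN, POLH and PHLDA3, all lay below (8.16% of all genes did). As with the other lists here, the targets were chosen with earlier results of these data known. The median SE of a target's log2 fold change was 0.35. In bulk RNA, a change in fewer cells and a smaller change in every cell cannot be told apart.

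The lower median came from 2 libraries. Median log2 CPM of the 24 targets relative to the controls was -0.29, -0.43 and 0.06 in ZEB1 replicates 1, 2 and 3, and -0.07, 0.03 and 0.02 in the controls. Over all tested genes those medians were -0.06, -0.01 and 0.01 in the ZEB1 libraries. In ZEB1 replicates 1, 2 and 3, 11, 15 and 7 of the 24 targets lay below all controls (45.8%, 62.5% and 29.2%), where 41.9%, 37.4% and 28.2% of all tested genes did. Without ZEB1 replicate 3 the median log2 fold change was -0.33, and with it as the only ZEB1 library it was 0.0069. Replicate 3 is the deepest ZEB1 library and had 6894 CPM of ZEB1 against 12267 and 14047 CPM in replicates 1 and 2, so these differences between its libraries cannot be told apart.

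Summed over all 30 genes, the level was 747, 791 and 769 CPM in control replicates, against 813, 771 and 818 CPM under the ZEB1 vector. RPS27L made up 15.8%, 19.8% and 14.3% of that in the controls, against 33.9%, 34.7% and 19.7% under the ZEB1 vector. Without it, the sum over the other 29 genes was 629, 635 and 659 CPM across the controls, against 538, 504 and 657 CPM in ZEB1 replicates 1, 2 and 3. Replicates 1 and 2 were then below every control, and replicate 3 was within the control range.

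Regulators of p53 were listed as well. Of 30 listed genes of the p53 core and its regulators 28 were tested and 0 passed, with 10 higher, 18 lower and a median log2 fold change of -0.21. In 2 of the 28 all ZEB1 libraries lay below all controls (8.16% of all genes did) and in 0 all lay above (6.96%). MDM2, the ubiquitin ligase that degrades p53 and is itself a p53 target, had 31.9, 35.7 and 35.7 CPM in control replicates, against 18.7, 18.6 and 21.7 CPM under the ZEB1 vector. The 3 ZEB1 libraries lay close together and below all controls, at a log2 fold change of -0.79 (SE 0.29, unadjusted edgeR p 0.0120, adjusted p 0.348). It was lower without each library in turn, and DESeq2 gave it no adjusted p. HUWE1, another ligase for p53, was at -0.38 (SE 0.18), the kinase gene HIPK2 at -0.48 (SE 0.27), and NPM1, a nucleolar chaperone and the most counted gene of this list, at 0.29 (SE 0.16).

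Of 73 further p53 targets, a list that includes CDKN1A, 61 were tested and 0 passed, with 22 higher, 39 lower and a median log2 fold change of -0.17. In 12 of the 61 all ZEB1 libraries lay below all controls (8.16% of all genes did) and in 2 all lay above (6.96%). CDKN1A, which encodes the CDK inhibitor p21, had 97.0, 94.6 and 134 CPM in control replicates, against 71.1, 57.2 and 74.8 CPM under the ZEB1 vector. Its groups did not overlap (log2 fold change -0.68, SE 0.20, edgeR adjusted p 0.235), and DESeq2 gave an adjusted p of 0.0468. It did not pass in any other setting run, where its adjusted p was 0.0592 to 0.873. ABHD4, a lipid hydrolase gene, had 69, 90 and 94 counts across controls, against 6, 10 and 14 under the ZEB1 vector (log2 fold change -1.45, SE 0.48, edgeR adjusted p 0.281).

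**Figure D4:**
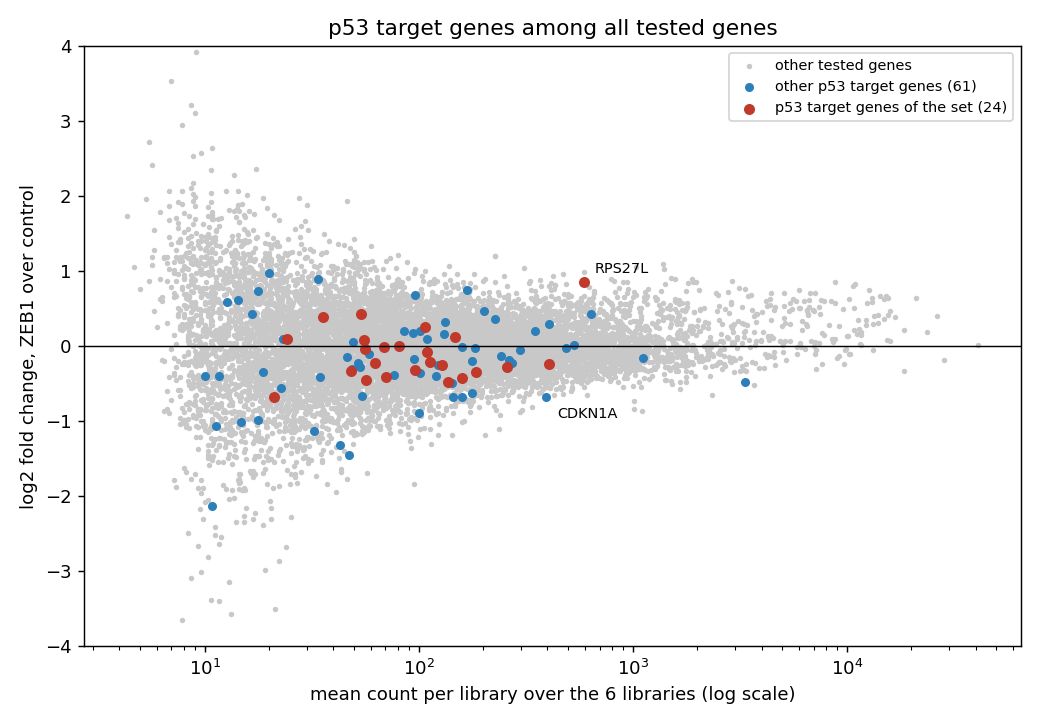
Log2 fold change against mean count per library (log scale) for all tested genes (grey), 61 other p53 targets (blue) and the 24 tested p53 targets described here (red); 13 genes outside ±4, ZEB1 among them, are not drawn. RPS27L at 0.86 lies apart from the other red points, which lie between -0.67 and 0.43.

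Promoters were then searched for the p53 consensus. Genes enter lists of p53 targets partly because p53 binds near them, so a higher share among them is not independent of their choice. The search used the p53 decamer, the palindromic 10-base consensus whose copies pair in a p53 response element, and promoters from 250 bases before to 50 bases after each RefSeq start (GRCh38.p14), with every listed start of a gene searched. Promoters were listed for 24 of the 30 genes, and 7 of these 24 (29.2%) held a decamer, against 8.06% of 27305 genes. By promoter the shares were 18.9% of 37 and 6.63% of 35116. The matches are shown in capitals in windows of 30 bases, on the strand of the gene.
PLK2 (chr5:58460199-58460228, minus): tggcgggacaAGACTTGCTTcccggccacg
SESN1 (chr6:109009018-109009047, minus): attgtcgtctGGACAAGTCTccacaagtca
FAS (chr10:88991299-88991328, plus): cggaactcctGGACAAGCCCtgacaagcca
DDB2 (chr11:47214975-47215004, plus): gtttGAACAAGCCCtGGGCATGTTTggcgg
RPS27L (chr15:63157517-63157546, minus): ggcctagagcAGACAAGCCCgccccgccgc
AEN (chr15:88621296-88621325, plus): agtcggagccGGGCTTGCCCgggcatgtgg
FDXR (chr17:74872986-74873015, minus): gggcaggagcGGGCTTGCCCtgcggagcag
DDB2 was the member with paired decamers at most 13 bases apart, an arrangement found in 10 of the 27305 genes. A match describes these letters and is not evidence of binding. Of the 7 genes, RPS27L and FDXR had positive log2 fold changes, PLK2, SESN1, DDB2 and AEN negative ones, and FAS was untested, so genes with a decamer were found on both sides. The E-box CAGGTG, read on both strands and known as a ZEB1 binding motif, was in the promoters of 6 of 24 members (25.0%), against 24.1% of all genes in the table.

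Across 16 other settings of filter, scaling, tool or libraries, 8 of the 24 targets kept the sign of their log2 fold change in every setting run. Of these, RPS27L and ZMAT3 were higher, and AEN, DDB2, KITLG, PHLDA3, POLH and SESN1 were lower. The other 16 changed sign in at least 1 setting. RPS27L passed in 5 settings: with no filter on low counts, where 0.693% of all genes passed, with DESeq2, with limma-voom, with limma-voom and sample quality weights (1.36%), and without ZEB1 replicate 3 (3.38%), where XPC also passed. No target passed in the other settings. There the share of all genes that passed was 0.0102% at a mean count of at least 20, 0.0109% after thinning, and 0.00883% with library size alone, RLE factors or the replicate block. It was 0.00886%, 0.00881% and 0.00884% without control replicates 1, 2 and 3, 0.00826% without ZEB1 replicate 1 or 2, and 0.0154% with both left out.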

How the data were processed

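DRUG-seq libraries, a low-cost form of RNA-seq, were made from total RNA of 6 TC28a2 samples, per the labels' protocols. The authors deposited raw counts per Entrez gene. The submitters' processing notes name HISAT2, Subread, featureCounts and the build GRCh38, with no tool versions. Strand setting, annotation release and the collapsing of molecular identifiers were not given in the sources used here, so reads of overlapping genes cannot be told apart. Names came from a RefSeq table of GRCh38.p14, which matched 27745 of 28395 IDs.

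Counts were fitted with edgeR 4.0.16 (R 4.3.3), using the robust quasi-likelihood test, TMM factors, filterByExpr and group as the only term, over all genes; p-values are two-sided with Benjamini-Hochberg adjustment over the 11329 genes tested. Standard errors come from the fold change and F statistic and are approximate. Log2 CPM used a prior count of 2. The steps were tested on simulated data, with changes larger than that of any tested target. That test does not show whether changes of the targets' size would be found. Alternatives were RLE factors, library size alone, other filters (none, or a mean count of at least 20), thinning to 1277632 counts, a replicate block, omission of libraries, DESeq2 1.42.0 and limma-voom (limma 3.58.1) with and without quality weights. All 30 members are named. Values in every library are given for the 12 tested members with the smallest p and the most counted member of each role; of each other list, the 3 genes with the smallest p, the most counted gene, and MDM2 and CDKN1A, except that some genes this rule names are not reported here. Members and lists were chosen with earlier results of these data known.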

Additional observations from a re-analysis of the deposited data

How the results depend on the processing

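The count of p53 targets past the threshold was 0 in the edgeR fit. It was 1 (RPS27L) with no filter on low counts, DESeq2, limma-voom and limma-voom with sample quality weights, where DESeq2 gave an adjusted p to 2 of the 24 targets, and 0 to 2 on leaving out single libraries, the 2 (RPS27L and XPC) without ZEB1 replicate 3. The count over all genes was 127 with no filter, 174 with DESeq2, 58 with limma-voom, 154 with quality weights, 2 with ZEB1 replicates 1 and 2 left out together, and 1 to 409 on leaving out single libraries, the 409 without ZEB1 replicate 3. The median log2 fold change of the targets was -0.33 to -0.064 on leaving out single libraries and 0.0069 with ZEB1 replicates 1 and 2 left out together. It was -0.34 when only library size scaled the counts, and the median of all genes then moved from -0.01 to -0.14. In each case the cause was not tested.

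Sign changes were seen in 16 targets. With ZEB1 replicates 1 and 2 left out together, GADD45A was at 0.044, PLK2 at 0.092, PLK3 at 0.14, PPM1D at -0.030, RRM2B at -0.28, SESN2 at 0.55, TNFRSF10B at 0.12, TP53I11 at 0.19, TP53I3 at -0.47 and XPC at 0.46. With library size alone, RRM2B was at -0.047, TIGAR at -0.13, TP53I3 at -0.051 and TRIAP1 at -0.017. With thinning, CDIP1 was at 0.019, RRM2B at -0.018 and TNFRSF10B at 0.054. CCNG1 was at 0.013 with RLE factors, 0.010 at a mean count of at least 20 and 0.028 with DESeq2. With limma-voom SESN2 was at 0.090 and TP53I3 at -0.084. TIGAR was at -0.017 with no filter and -0.081 with quality weights. On leaving out single libraries the ranges were -0.53 to 0.29 for CCNG1, -0.17 to 0.067 for CDIP1, -0.029 to 0.84 for FDXR, -0.18 to 0.62 for PPM1D and -0.081 to 0.28 for RRM2B. They were -0.62 to 0.20 for SESN2, -0.17 to 0.23 for TIGAR, -0.82 to 0.029 for TNFRSF10A, -0.14 to 0.35 for TP53I3 and -0.087 to 0.28 for TRIAP1. Of 383 target values in these settings, 333 kept direction and side of the threshold.

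No shared deviation by replicate number was seen: deviations of same-numbered libraries correlated at -0.032, -0.009 and 0.009. Such values cannot exclude that the samples were paired when made. With the replicate block 0 targets and 1 gene passed, the median was -0.26, and TIGAR was at -0.040. At this depth 3 counts stand for 2.67 CPM in ZEB1 replicate 1 and 0.481 CPM in control replicate 1.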

Other observations

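Of the 61 other p53 targets tested, 3 were higher and 7 lower at an unadjusted edgeR p under 0.05, where 5.83% and 3.57% of all tested genes were; the genes below were chosen after their values were seen. STEAP3, a ferrireductase of endosomes, had 166, 134 and 207 counts across controls, against 18, 19 and 57 under the ZEB1 vector, for a log2 fold change of -0.90 (SE 0.33). FBXO22, a ubiquitin ligase subunit, had 71, 88 and 65 counts and 2, 6 and 27, at -1.32 (SE 0.54). In both genes all ZEB1 libraries lay below all controls. ZEB1 replicate 1 of FBXO22 was under the 3 counts taken as seen, so the size of its change is uncertain. ISCU, the scaffold for iron-sulfur cluster assembly, was at 0.75 (SE 0.29), with 98.6, 65.6 and 34.9 CPM in ZEB1 replicates 1, 2 and 3 against 34.8, 46.1 and 33.9 CPM in the controls. Its ZEB1 replicate 3 lay within the control range. None of the 3 passed the edgeR threshold, with adjusted p of 0.359, 0.433 and 0.411 in that order.

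BBC3, which encodes the death protein PUMA, had 14, 25 and 21 counts across controls, against 0, 1 and 4 under the ZEB1 vector. Its log2 fold change was -2.13 (SE 1.11, edgeR adjusted p 0.588). ZEB1 replicates 1 and 2 were under the 3 counts taken as seen, which equal 2.67 and 1.93 CPM there. Control replicates 1, 2 and 3 were at 2.25, 4.56 and 3.43 CPM, the first of them under that level in ZEB1 replicate 1. No size of change is read from these counts. BBC3 was also named after its counts were seen.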
